A study of Arabidopsis thaliana with 18 samples.

Results

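The genes described here encode basic leucine zipper (bZIP) transcription factors of Arabidopsis thaliana whose array annotation names them by their bZIP number. The platform annotation gave such a name to 14 probe sets paired with a single gene, and 9 of them had a mean level of at least 5.5 over all 18 arrays, on the scale log2(value + 16) of the deposited intensities. These 9 members were bZIP17 (AT2G40950), bZIP19 (AT4G35040), bZIP28 (AT3G10800), bZIP44 (AT1G75390), bZIP52 (AT1G06850), bZIP53 (AT3G62420), bZIP58 (AT1G13600), bZIP60 (AT1G42990) and bZIP61 (AT3G58120), out of 13513 probe sets paired with 1 gene. The threshold fell between bZIP58, at a mean of 5.57, and bZIP24 (AT3G51960), at 5.20. The other 4 below it were bZIP42, bZIP43, bZIP34 and bZIP48, at means from 4.92 down to 4.15. These 5 were near the floor of 4 that the added 16 sets, and none of them passed the filter on low levels, while all 9 members did.

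The study asked how seedlings moved from cool to warm temperature change their transcripts, and whether the arp6-10 mutant does so differently. Seedlings of the wild type Col-0 and of arp6-10 grew for 5 days at 20 °C, spent 3 days at 12 °C in continuous light, and were then shifted to 27 °C. Whole seedlings, labelled as 8 days old, were frozen before the shift and after 2 h and 24 h of warmth, which gave 6 groups with 2 arrays each for Col-0 and 4 each for arp6-10. Total RNA was hybridised to a 1-colour Affymetrix array. ARP6 is an actin-related protein of the complex that places the histone variant H2A.Z into chromatin, and the labels say no more of the arp6-10 allele than its name. No group stayed at 12 °C for the extra hours, so warmth and elapsed time cannot be told apart. The labels do not say whether replicates were separate plates, so each p-value reflects only how far these arrays scatter, and that scatter may be technical. In RNA from whole seedlings, fewer cells of a type and less RNA per cell cannot be told apart.

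Proteins of the bZIP family bind DNA through a basic region and pair through a zipper of leucines, as homodimers or with a partner of the same family. In plants they act in seed maturation, light and abscisic acid signalling, the response to low energy, zinc supply and stress of the endoplasmic reticulum. Several are controlled after transcription, by cleavage from a membrane, splicing, translation or entry into the nucleus, which transcript levels do not show.

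Among the arrays, 2 went against their labels. For 5 genes of flavonoid synthesis the array labelled arp6-10 at 12 °C replicate 3 had a mean level of 7.33, against 10.59 to 10.90 on the other 3 arrays of its group. The array labelled arp6-10 at 24 h replicate 2 had 11.05, against 7.32 to 7.71 on its other 3. On an axis over all tested probe sets with 0 at the mean of the other arp6-10 arrays at 12 °C and 1 at the mean of the other arp6-10 arrays at 24 h, the first of them stood at 0.96 and its group's others at 0.08 to 0.14. The second stood at -0.04 and its group's others at 0.88 to 0.93. Results are therefore given for all 18 arrays as labelled and for the 16 arrays without these, a choice made from the arrays' own levels, the members' included. Leaving out arrays that resemble the other group tends to widen the arp6-10 difference between 12 °C and 24 h. It also narrows the spread that all comparisons share. The p-values of the 16 arrays are thus favoured by the choice and serve as a description. The ratio of the 3' to the 5' control probe sets for GAPDH, which rises where RNA is shortened, ranged from 1.47 to 6.78 over the arrays.

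**Figure D1:**
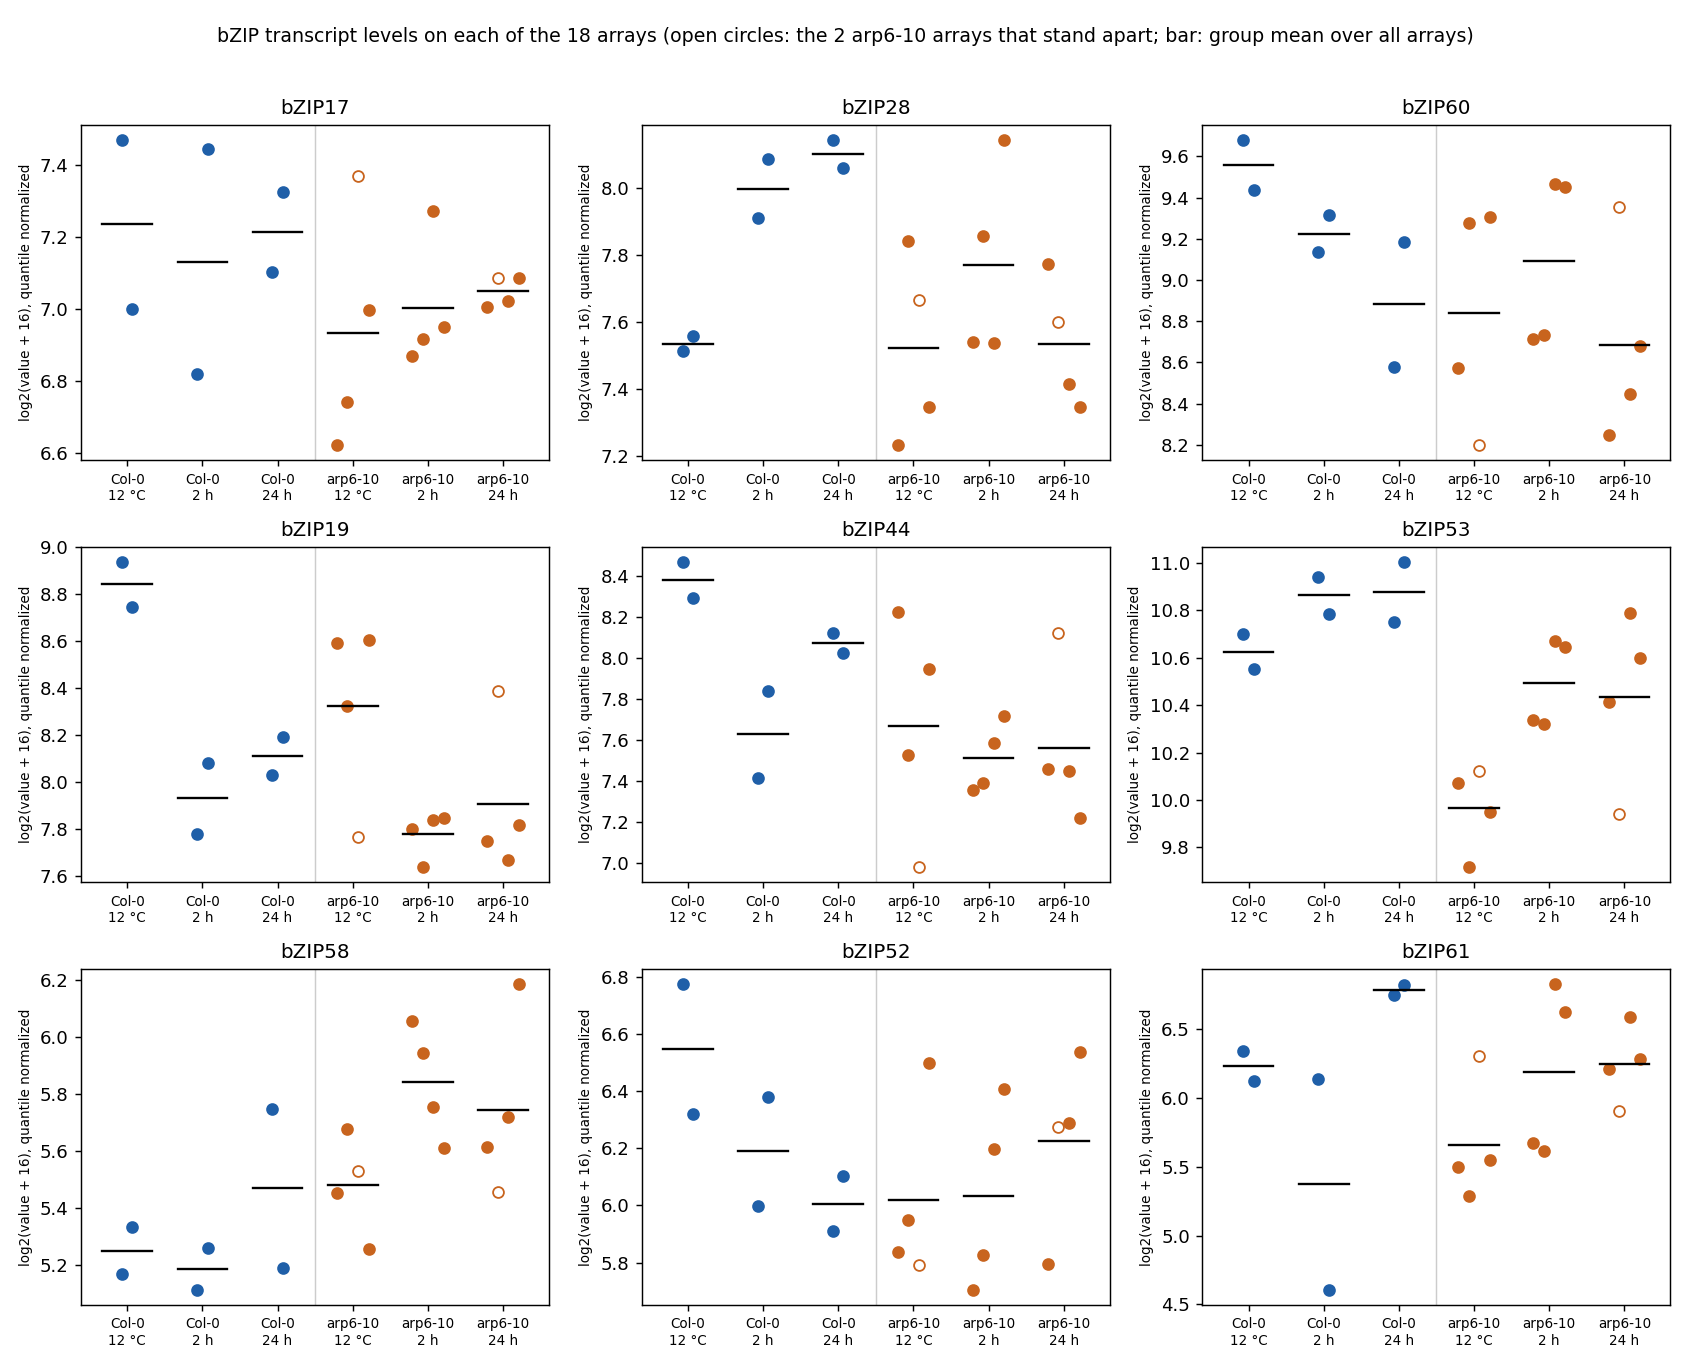
Level of each of the 9 bZIP members on each of the 18 arrays, as quantile-normalised log2(value + 16), by genotype and by time before or after the shift to 27 °C, each panel with its own vertical axis. Points are arrays, bars are means over all arrays of a group, and open circles are the arrays labelled arp6-10 at 12 °C replicate 3 and arp6-10 at 24 h replicate 2; in the panel of bZIP19 the Col-0 arrays at 12 °C, at 8.75 and 8.94, lie above all 16 other arrays.

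Levels below are log2(value + 16) after quantile normalisation, and differences are on that scale, which understates the change of dim probe sets. A difference was called where limma's moderated test gave an adjusted p under 0.05 over the 15922 probe sets tested. On all 18 arrays, 2 calls were made among the 9 members over the 11 comparisons. Zinc regulator bZIP19 fell between 12 °C and 2 h of warmth in Col-0, where 7.9% of all tested probe sets were called. The other call was bZIP53, a regulator of seed maturation and amino acid metabolism genes, which was lower in arp6-10 than in Col-0 at 12 °C, where 32.3% of all tested probe sets were called. On the 16 arrays 6 of the 11 comparisons had at least 1 member called, and those calls fell on bZIP19, bZIP44, bZIP53 and bZIP61. Those 6 comparisons called 13.9% to 39% of all tested probe sets.

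Zinc supply is the known field of bZIP19, which together with its close relative bZIP23 switches on zinc transporter genes when zinc is short. In Col-0 its level was 8.94 and 8.75 at 12 °C, 7.78 and 8.08 at 2 h, and 8.03 and 8.19 at 24 h. The Col-0 arrays before the shift were thus higher than every array after it. From 12 °C to 2 h bZIP19 fell by 0.91 (SE 0.27, n = 2 and 2, 95% interval -1.48 to -0.35, adjusted p = 0.0457 by limma), which is 1.88-fold lower. At 24 h the difference from 12 °C was -0.73 (SE 0.27, adjusted p = 0.0666 by limma), not called in a comparison that called 17.4% of all tested probe sets.

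In arp6-10 the level of bZIP19 was 8.59, 8.32, 7.76 and 8.61 at 12 °C, where the low array was replicate 3. It was 7.80, 7.64, 7.84 and 7.84 at 2 h, and 7.75, 8.39, 7.67 and 7.82 at 24 h, where the high array was replicate 2. Those 2 arrays are the ones that went against their labels, and without them the groups before and after the shift did not overlap. On all 18 arrays the differences were -0.54 at 2 h (adjusted p = 0.119 by limma) and -0.42 at 24 h (adjusted p = 0.465), against backgrounds of 3.7% and 0% called (at 24 h 1691 of the 15922 probe sets had an unadjusted p under 0.05 by limma). On the 16 arrays bZIP19 fell by 0.73 at 2 h (SE 0.14, adjusted p = 0.000813) and by 0.77 at 24 h (SE 0.15, adjusted p = 0.000515), where 17% and 28.9% of all tested probe sets were called. In Col-0 the 16-array fit gave falls of 0.92 at 2 h (adjusted p = 0.0015) and 0.74 at 24 h (adjusted p = 0.00416), with backgrounds of 21.2% and 31.2%. The comparisons at 2 h and 24 h share their 12 °C arrays.

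The fall of bZIP19 in Col-0 lay close to the threshold on all 18 arrays. Leaving out any 1 of 14 arrays ended the call. Without Col-0 replicate 1 or 2 at 12 °C it was -0.81 (adjusted p = 0.245 by limma) or -1.0 (adjusted p = 0.0868), and without Col-0 replicate 1 or 2 at 2 h it was -0.76 (adjusted p = 0.246) or -1.06 (adjusted p = 0.0846). In these 4 fits the lone array of a group was assumed to vary like the other groups. Without 1 of the 10 others, all arrays of Col-0 at 24 h and of arp6-10 at 2 h, replicate 2 of arp6-10 at 12 °C and replicates 1, 3 and 4 of arp6-10 at 24 h, the adjusted p was 0.0504 to 0.0587. The call stayed without replicate 1, 3 or 4 of arp6-10 at 12 °C or replicate 2 of arp6-10 at 24 h. Leaving out replicate 3 of arp6-10 at 12 °C or replicate 2 of arp6-10 at 24 h also called the Col-0 fall at 24 h, at adjusted p of 0.0269 and 0.0322 by limma. Neither array is in that Col-0 comparison, whose difference was -0.74 and -0.73 in these fits. Leaving out the first array called the arp6-10 fall at 2 h (adjusted p = 0.0143). The only zinc transporter gene of the 10 listed zinc deficiency genes with a probe set of its own was ZIP9 (AT4G33020), which bZIP19 and bZIP23 are known to activate. Its difference at 2 h in Col-0 was 0.37 (95% interval -0.22 to 0.97, adjusted p = 0.419 by limma), and it was not called at 24 h against 12 °C in either genotype. From 2 h to 24 h ZIP9 differed by -0.81 in Col-0 and -0.45 in arp6-10 on all 18 arrays, neither called. On the 16 arrays these were -0.81 and -0.62, both called, with backgrounds of 13.9% and 14.9%. ZIP9 was lower in arp6-10 than in Col-0 at 12 °C, by -0.76 (adjusted p = 0.0254), and at 2 h, by -0.85 (adjusted p = 0.0375). Those comparisons called 32.3% and 9.25% of all tested probe sets. For bZIP19 the difference was also negative, at -0.52 at 12 °C (95% interval -1.01 to -0.03, adjusted p = 0.0958) and -0.15 at 2 h (adjusted p = 0.735). Neither was called.

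Photosynthesis markers moved over the same groups. The mean level of the 4 tested shoot markers of 8 listed was 12.62 to 12.86 in Col-0 at 12 °C, 13.15 to 13.39 at 2 h and 13.66 to 13.69 at 24 h. The mean of the 3 tested root markers of 6 listed was 9.58 to 9.62, 9.40 to 9.75 and 9.64 to 10.23 in these groups. In arp6-10 the shoot mean was 12.65 to 13.67 at 12 °C, 13.18 to 13.33 at 2 h and 12.72 to 13.75 at 24 h. The values of 13.67 and 12.72 came from the 2 arrays that went against their labels. Without them the shoot mean was 12.65 to 12.88 at 12 °C and 13.50 to 13.75 at 24 h. The root mean in arp6-10 lay between 9.48 and 10.54. All 7 markers were far above the floor, as in whole seedlings, and their part in any difference given here was not tested.

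A group of small bZIP proteins known as S1, to which bZIP44 and bZIP53 belong, pairs with group C members and acts downstream of the SnRK1 kinase when energy is low. For bZIP53 the level in Col-0 was 10.70 and 10.55 at 12 °C, 10.94 and 10.79 at 2 h, and 10.75 and 11 at 24 h. In arp6-10 it was 10.07, 9.72, 10.12 and 9.95 at 12 °C, then 10.34, 10.32, 10.67 and 10.64 at 2 h, and 10.41, 9.94, 10.79 and 10.60 at 24 h. All 4 arp6-10 arrays at 12 °C lay below both Col-0 arrays and below every arp6-10 array at 2 h.

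Between genotypes at 12 °C bZIP53 was 1.58-fold lower in arp6-10, a log2 difference of -0.66 (SE 0.21, n = 4 and 2, 95% interval -1.10 to -0.22, adjusted p = 0.0221 by limma). On the 16 arrays it was -0.72 (adjusted p = 0.00241), against 39% of all tested probe sets called. The call did not hold in fits without 1 of 3 arrays of those groups. The adjusted p was 0.156 without Col-0 replicate 1, 0.0707 without Col-0 replicate 2 and 0.0563 without arp6-10 replicate 2, with differences from -0.73 to -0.58. The fits without a Col-0 array again took the spread of the lone array from the other groups. With the spread estimated from the compared groups alone the adjusted p was 0.0545. After the shift the genotype difference in bZIP53 was -0.37 at 2 h (adjusted p = 0.279) and -0.44 at 24 h (adjusted p = 0.334), not called in comparisons that called 9.25% and 0.93% of all tested probe sets.

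Warming bZIP53 gave differences in arp6-10 of 0.53 at 2 h (95% interval 0.17 to 0.88, adjusted p = 0.0916 by limma) and 0.47 at 24 h (95% interval 0.11 to 0.83, adjusted p = 0.465). Without the doubted arrays bZIP53 rose in arp6-10 by 0.59 at 2 h (adjusted p = 0.00614) and by 0.69 at 24 h (adjusted p = 0.00165). Leaving out replicate 2 of arp6-10 at 24 h alone was enough for a call at both times, with adjusted p of 0.0283 and 0.0229 by limma. That array is in neither group of the 2 h comparison, where the difference stayed at 0.53. Only the shared spread, the normalisation and the adjustment differed there. Shares over all tested probe sets were not counted for that fit. The same comparisons in Col-0 gave 0.24 and 0.25 on all 18 arrays, with adjusted p of 0.559 and 0.477. The difference between the genotypes' responses was not called, at 0.29 for 2 h (95% interval -0.33 to 0.91, adjusted p = 0.69) and 0.22 for 24 h (95% interval -0.40 to 0.84, adjusted p = 0.707). Over all tested probe sets, 0.59% differed between genotypes in the 2 h response and 5.83% in the 24 h response.

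For bZIP44, whose translation is known to be repressed by sucrose through a leader peptide, the Col-0 levels were 8.47 and 8.29 at 12 °C, 7.41 and 7.84 at 2 h, and 8.12 and 8.02 at 24 h. Col-0 at 2 h was lower than both other Col-0 groups on each array. In arp6-10 the levels were 8.22, 7.52, 6.98 and 7.94 at 12 °C, 7.36, 7.39, 7.58 and 7.72 at 2 h, and 7.46, 8.12, 7.45 and 7.22 at 24 h. The lowest array at 12 °C was again replicate 3 and the highest at 24 h replicate 2.

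The change of bZIP44 in Col-0 at 2 h was -0.75 (SE 0.33, 95% interval -1.45 to -0.06, adjusted p = 0.158 by limma) on all 18 arrays, and on the 16 arrays it fell by 0.76 (SE 0.22, adjusted p = 0.0202). In arp6-10 at 24 h it was -0.11 on all arrays (adjusted p = 0.878), and on the 16 arrays it fell by 0.52 (SE 0.18, adjusted p = 0.0348). At 12 °C each arp6-10 array lay below both Col-0 arrays, a difference of -0.71 (95% interval -1.31 to -0.11, adjusted p = 0.0648) that was not called on either set of arrays. On the 16 arrays it was -0.49 (adjusted p = 0.063 by limma). At 24 h the genotype difference was -0.51 on all 18 arrays (adjusted p = 0.424). On the 16 it was -0.70 (95% interval -1.12 to -0.28, adjusted p = 0.0615). Neither was called, with backgrounds of 0.93% and 3%. The 12 °C difference was called without replicate 1 of arp6-10 at 12 °C, at -0.90 (adjusted p = 0.0219 by limma). It was also called without replicate 2 of arp6-10 at 24 h, an array in neither group, at -0.71 (adjusted p = 0.035). The third group S protein, bZIP58, was the dimmest member, with arrays from 5.11 to 5.75 in Col-0 and from 5.26 to 6.18 in arp6-10. Its 4 arp6-10 arrays at 2 h, from 5.61 to 6.05, lay above the Col-0 arrays at 5.11 and 5.26, and the difference of 0.65 (SE 0.23, adjusted p = 0.0885) was not called.

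Of 21 genes listed for the low-energy response, 8 were tested, and 2 rose in Col-0 at 2 h. These were IVD (AT3G45300), an enzyme that breaks down leucine, by 1.87 (adjusted p = 0.01 by limma), and MCCB (AT4G34030), a subunit of the methylcrotonyl-CoA carboxylase of the same pathway, by 1.47 (adjusted p = 0.016). The median change of the 8 was 1.02, beside 0.00 over all tested probe sets, of which 7.9% were called. On the 16 arrays 6 of the 8 rose at 2 h in Col-0 and AT5G38710 fell, with 21.2% of all tested probe sets called. IVD fell again from 2 h to 24 h by 1.80 (adjusted p = 0.0149), and its Col-0 arrays read 6.44 and 7.94 at 12 °C, 8.97 and 9.14 at 2 h, and 7.29 and 7.23 at 24 h. IVD was thus high on both Col-0 arrays at 2 h, where bZIP44 was low. The bZIP44 change was not called on all 18 arrays, and a link between the 2 genes was not tested. In arp6-10 at 2 h ETFQO (AT2G43400), which passes electrons from that breakdown to the respiratory chain, was the 1 gene of the 8 that rose on all 18 arrays, by 1.16 (adjusted p = 0.0219), where 3.7% of all tested probe sets were called. On the 16 arrays 4 of the 8 rose in arp6-10 at 2 h and 5 at 24 h, with backgrounds of 17% and 28.9%, while all 18 arrays called none of them at 24 h. All 18 arrays also called 1 of the 8 lower in Col-0 at 24 h than at 12 °C, with a background of 17.4%. Between genotypes at 12 °C 1 of the 8 was called higher in arp6-10, with a background of 32.3%.

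Stress of the endoplasmic reticulum is the field of bZIP17, bZIP28 and bZIP60. The first pair are held in the membrane and released by proteases in the Golgi, among them site-1 protease, and bZIP60 is activated when the kinase IRE1 splices its messenger RNA. None of these 3 was called in any of the 11 comparisons on either set of arrays. At an unadjusted p under 0.05 the number of members of any kind ranged from 0 to 4 of 9 over the comparisons on all 18 arrays, where 10.6% to 42.7% of all tested probe sets had such a p.

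For bZIP28 the Col-0 levels were 7.51 and 7.56 at 12 °C, 7.91 and 8.09 at 2 h, and 8.14 and 8.06 at 24 h, with both warm groups above the cool one. In arp6-10 they were 7.23, 7.84, 7.67 and 7.35 at 12 °C, 7.54, 7.86, 7.54 and 8.14 at 2 h, and 7.77, 7.60, 7.41 and 7.35 at 24 h, groups that overlapped. The Col-0 difference was 0.46 at 2 h (95% interval -0.03 to 0.96, adjusted p = 0.225 by limma) and 0.57 at 24 h (95% interval 0.07 to 1.07, adjusted p = 0.102). With the values as deposited, without quantile normalisation, bZIP28 was higher in Col-0 at 24 h by 0.80 (adjusted p = 0.0323), in a comparison whose median over all tested probe sets was 0.14. At 24 h all 4 arp6-10 arrays were below both Col-0 arrays, a difference of -0.57 (95% interval -1.0 to -0.14, adjusted p = 0.198). The responses of the genotypes at 24 h differed by -0.56 (95% interval -1.17 to 0.06, adjusted p = 0.275).

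For bZIP60 the Col-0 levels were 9.68 and 9.44 at 12 °C, 9.13 and 9.31 at 2 h, and 8.58 and 9.19 at 24 h. In arp6-10 they were 8.57, 9.27, 8.20 and 9.31 at 12 °C, 8.71, 8.74, 9.47 and 9.45 at 2 h, and 8.25, 9.35, 8.45 and 8.68 at 24 h. Both warm Col-0 groups lay below the cool one, while the arp6-10 arrays scattered widely and, on all arrays, their groups overlapped. The lowest arp6-10 array at 12 °C, replicate 3, and the highest at 24 h, replicate 2, were the doubted arrays. Without them every arp6-10 array at 24 h lay below those at 2 h. On the 16 arrays that difference was -0.64 (95% interval -1.10 to -0.17, adjusted p = 0.0626 by limma) and was not called. The arp6-10 group at 12 °C still overlapped both warm groups. The Col-0 difference at 24 h was -0.68 (SE 0.39, 95% interval -1.51 to 0.15, adjusted p = 0.235 by limma), and with the spread taken from those 2 groups alone it was called (adjusted p = 0.0494). In arp6-10 at 24 h it was -0.16 on all arrays (adjusted p = 0.843) and -0.60 on the 16 arrays (adjusted p = 0.0686). At 12 °C the genotype difference was -0.72 (SE 0.34, adjusted p = 0.117), with every arp6-10 array below both Col-0 arrays.

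The third member of this set, bZIP17, varied least with the groups. Its arrays ran from 6.82 to 7.47 in Col-0 and from 6.62 to 7.37 in arp6-10, where the highest was replicate 3 at 12 °C, a doubted array. Its differences ranged from -0.30, for arp6-10 against Col-0 at 12 °C (95% interval -0.77 to 0.16), to 0.17, for the difference of the 2 h responses (95% interval -0.48 to 0.83). In arp6-10 the warm shift moved it by 0.07 at 2 h (95% interval -0.31 to 0.45) and by 0.12 at 24 h (95% interval -0.26 to 0.50). The levels do not tell how much of the protein of bZIP17 or bZIP28 was cleaved, and a probe set for the whole transcript of bZIP60 does not separate its spliced from its unspliced form.

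Of 25 genes listed for the response to unfolded proteins, 5 had a single-gene probe set and were tested. ATERDJ3B (AT3G62600), a helper of the chaperone BiP in the endoplasmic reticulum, rose in Col-0 by 1.73 at 2 h (adjusted p = 0.00221 by limma) and by 2.07 at 24 h (adjusted p = 0.000207), and in arp6-10 by 1.14 at 2 h (adjusted p = 0.00411). It was also higher in arp6-10 than in Col-0 at 12 °C, by 1.71 (adjusted p = 6.2e-05), and at 2 h, by 1.12 (adjusted p = 0.00844). Its arrays read 7.90 and 7.84 in Col-0 at 12 °C, and 9.18, 9.59, 10.13 and 9.43 in arp6-10, with no overlap. The 24 h response of ATERDJ3B was smaller in arp6-10 by 1.80 on the log2 scale, a difference of -1.80 (adjusted p = 0.00585), and on the 16 arrays it was -1.50 (adjusted p = 0.00135).

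CRT1b (AT1G09210), a calreticulin that helps glycoproteins fold, was higher in arp6-10 at 12 °C by 0.80 (adjusted p = 0.0246 by limma) and at 2 h by 1.14 (adjusted p = 0.011). AT4G20310 was lower in arp6-10 at the same times, by -0.77 (adjusted p = 0.00546) and -0.90 (adjusted p = 0.00765), and fell in Col-0 from 2 h to 24 h by 0.85 (adjusted p = 0.034). The 2 tested genes not called on all 18 arrays were S1P (AT5G19660), the site-1 protease, and AT5G07340, which on the 16 arrays was higher in arp6-10 at 12 °C by 0.45 (adjusted p = 0.0276). The list thus held 2 members higher and 1 lower in arp6-10 at 12 °C, in a comparison that called 32.3% of all tested probe sets, while the 3 bZIP genes of the same response were called neither way.

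**Figure D2:**
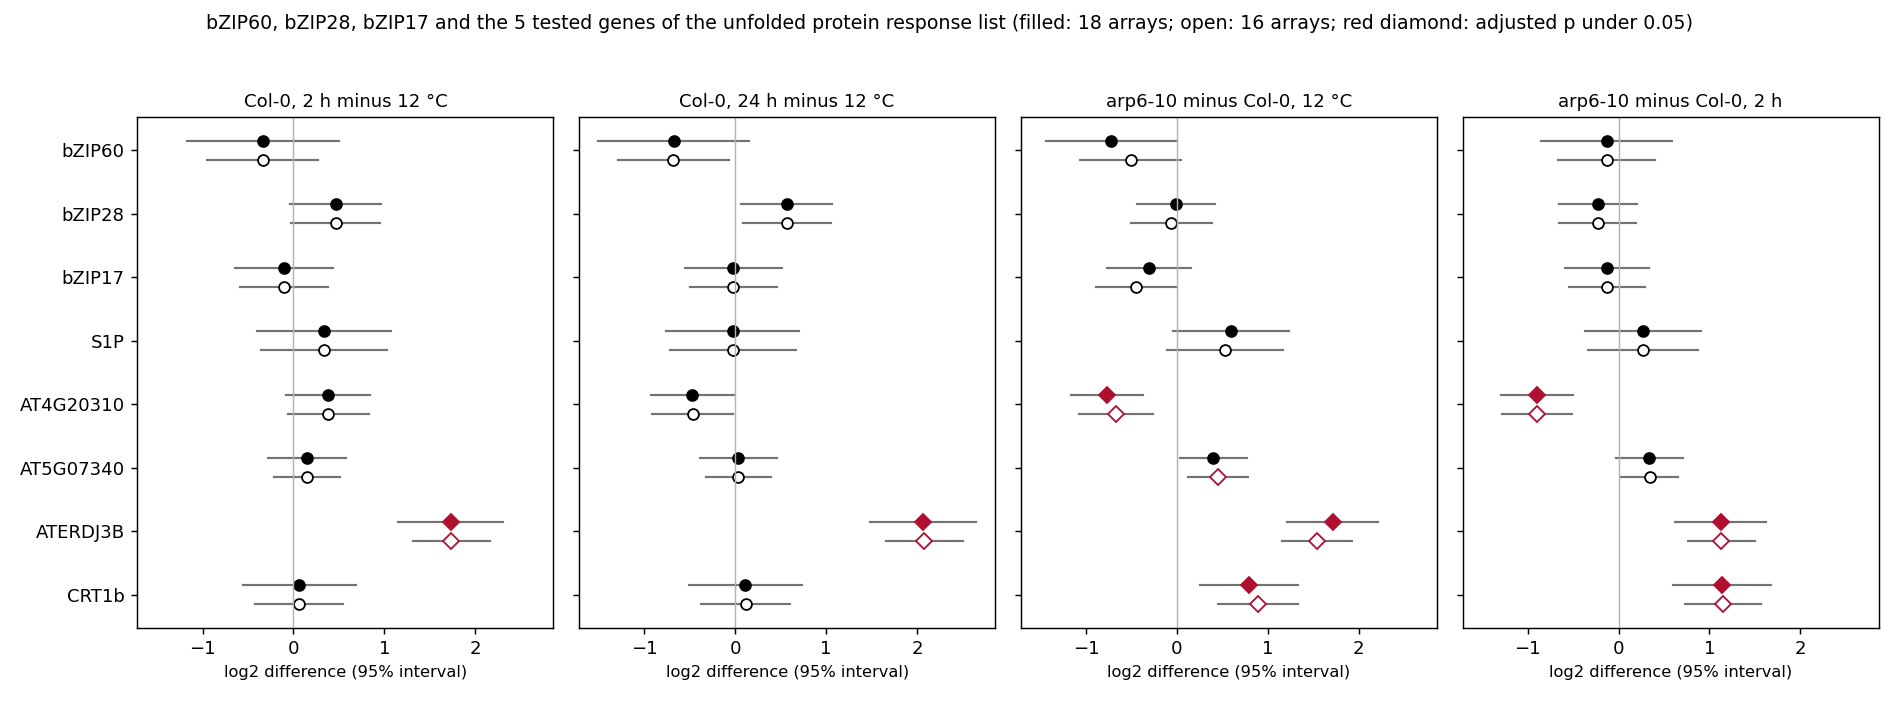
Differences of bZIP60, bZIP28, bZIP17 and the 5 tested genes of the unfolded protein list, for Col-0 at 2 h and 24 h against 12 °C and for arp6-10 against Col-0 at 12 °C and 2 h, as limma estimates on the log2 scale with 95% intervals before adjustment. Filled symbols are from all 18 arrays, open symbols from the 16 arrays, and red diamonds have an adjusted p under 0.05; no bZIP gene has a diamond, while ATERDJ3B has one in every panel, from 1.12 to 2.07 on all arrays.

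The closest relative of bZIP61 in group E is bZIP34, which is known from pollen development and was too dim to be tested here. The level of bZIP61 was the most variable of the members, with group means that spanned 1.41. In Col-0 it was 6.34 and 6.12 at 12 °C, 6.14 and 4.61 at 2 h, and 6.74 and 6.82 at 24 h. In arp6-10 it was 5.5, 5.29, 6.30 and 5.55 at 12 °C, 5.67, 5.61, 6.82 and 6.63 at 2 h, and 6.21, 5.91, 6.59 and 6.28 at 24 h. A single Col-0 array, replicate 2 at 2 h, was far lower than the other 17. That array also had the highest GAPDH 3' to 5' ratio of the 18, at 6.78, where its group's other array had 2.58, and the part of this in its low level was not tested.

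From 2 h to 24 h bZIP61 differed in Col-0 by 1.41 (SE 0.46, 95% interval 0.44 to 2.38, adjusted p = 0.0883 by limma), where 4.67% of all tested probe sets were called. On the 16 arrays it rose by 1.40 (SE 0.41, adjusted p = 0.0283), where 13.9% were called. Without Col-0 replicate 1 at 2 h, which leaves the low array alone in its group, the difference was 2.18 (adjusted p = 0.0245), with the lone array assumed to vary like the other groups. Without the low array itself it was 0.65 (adjusted p = 0.598). Leaving out Col-0 replicate 1 at 2 h also put bZIP61 higher in arp6-10 at 2 h by 1.58 (adjusted p = 0.0472), where all 18 arrays gave 0.81 (adjusted p = 0.215) and omission of the low array gave 0.04 (adjusted p = 0.975). In arp6-10 it rose on the 16 arrays at 24 h by 0.91 (SE 0.34, adjusted p = 0.0486), and on all 18 the difference was 0.59 (adjusted p = 0.495). The difference between the 2 h responses of the genotypes was 1.38 (95% interval 0.20 to 2.57, adjusted p = 0.282).

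Last of the members is bZIP52, of group I, which holds factors known from vascular development and osmotic responses. Its arrays ran from 5.91 to 6.77 in Col-0 and from 5.71 to 6.54 in arp6-10, and the groups overlapped in all but 1 comparison of single groups. That was Col-0 at 24 h against 12 °C, with a difference of -0.54 (95% interval -1.17 to 0.09, adjusted p = 0.212 by limma). The genotype difference at 12 °C was -0.53 (95% interval -1.07 to 0.02, adjusted p = 0.131). The 24 h responses of the genotypes differed by 0.75 (95% interval -0.03 to 1.52, adjusted p = 0.244).

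**Figure D3:**
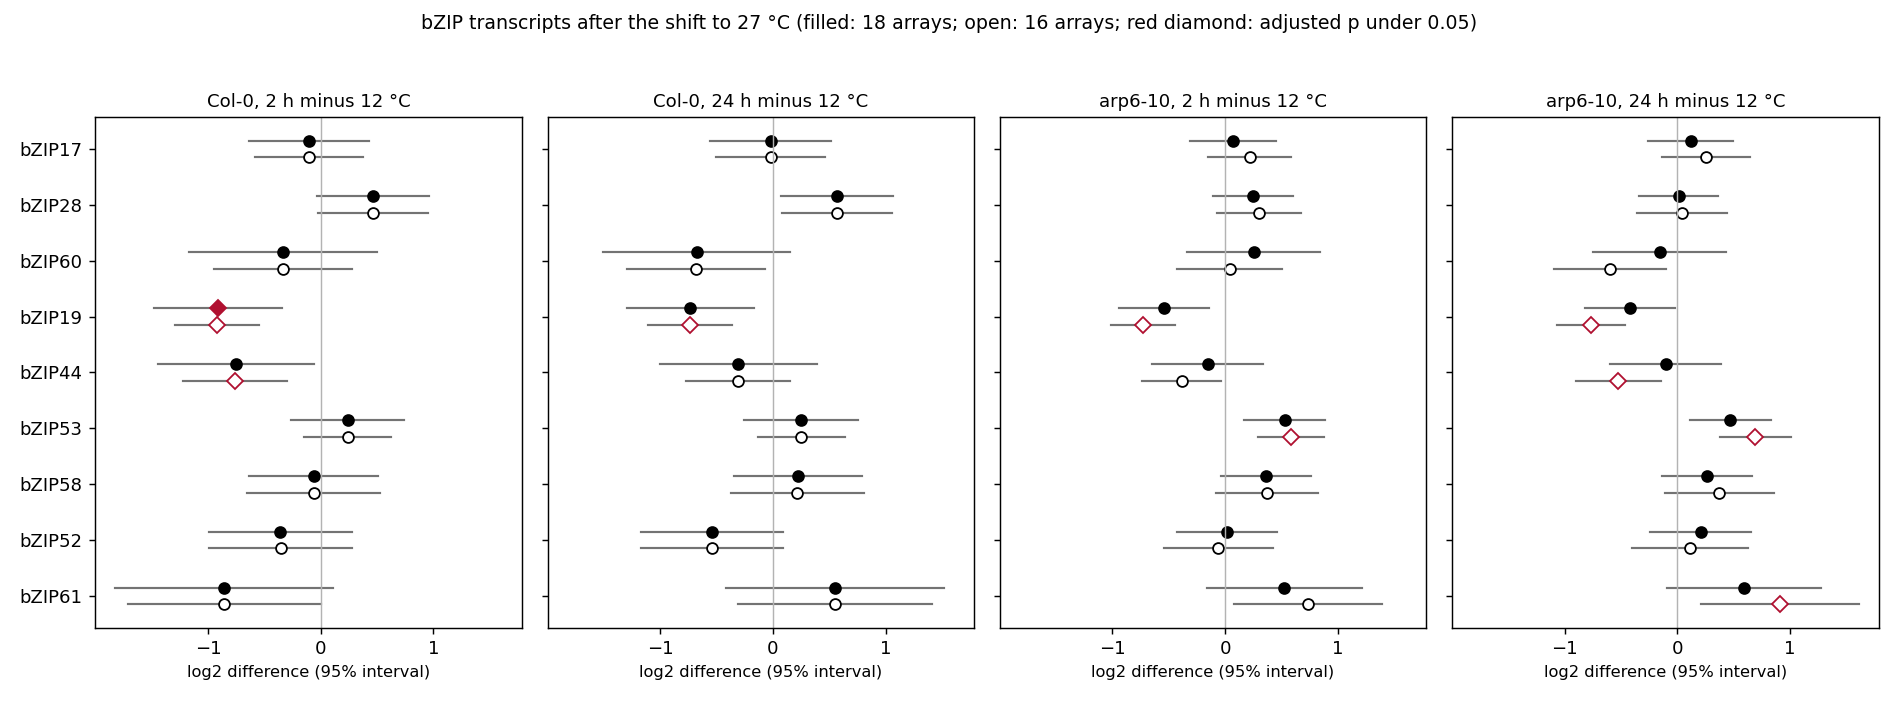
Change of each bZIP member after the shift to 27 °C, at 2 h and 24 h against 12 °C, in Col-0 and in arp6-10, as limma estimates on the log2 scale with 95% intervals before adjustment. Filled symbols are from all 18 arrays, open symbols from the 16 arrays, and red diamonds have an adjusted p under 0.05; the single filled diamond is bZIP19 in Col-0 at 2 h, at -0.91, and bZIP19 has an open diamond in all 4 panels.

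Within arp6-10 at 2 h, replicates 1 and 2 both lay below replicates 3 and 4 for 7 of the 9 members. The exceptions were bZIP58, where they lay above, and bZIP28, where the pairs overlapped. For bZIP60 the first pair had 8.71 and 8.74 and the second pair 9.47 and 9.45, and for bZIP61 they had 5.67 and 5.61 against 6.82 and 6.63. Over the 15922 tested probe sets, replicates 1 and 2 correlated at 0.9868 and replicates 3 and 4 at 0.9817, and arrays across the pairs at 0.9728 to 0.9802. The labels name no batch for these arrays. How many of all tested probe sets split in this way was not counted, so whether 7 of 9 is unusual cannot be told. The part of this split in the members' spread was not tested.

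The signs of the estimates were also counted across the 9 members, as a description. At 12 °C 8 of 9 had a lower estimate in arp6-10 than in Col-0. It was 7 of 9 on the values as deposited and with a replicate block, where bZIP28 turned. The median of the 9 was -0.53 beside -0.05 over all tested probe sets, and 1 of the 9 was called. At 2 h and at 24 h 7 of 9 were lower in arp6-10, and none was called. The medians were -0.13 and -0.21, beside 0.02 and -0.003 over all tested probe sets. On the values as deposited bZIP17 and bZIP44 turned at 2 h. In Col-0 7 of 9 had a lower estimate at 2 h than at 12 °C on either scaling, with a median of -0.34 beside 0.00. In arp6-10 7 of 9 had a higher estimate at 2 h, with a median of 0.25 beside 0.00. There bZIP17 and bZIP52 turned on the values as deposited, and bZIP52 on the 16 arrays, which left 6 of 9. The 8 other tested bZIP genes, described below, had a median of 0.42 for the genotypes at 12 °C and 0.40 for Col-0 at 2 h. Both medians were opposite in sign to those of the members, and for arp6-10 at 2 h it was 0.10. The share of all tested probe sets on each sign was not counted, so whether these counts are unusual cannot be told. The members were read on the same arrays and are not replicates. The differences between genotypes at 12 °C, the 2 h responses and their difference share arrays, so their signs are not separate observations.

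The direct tests of a genotype difference in response called no member by limma. At an unadjusted p under 0.05 they held 1 member of 9 for 2 h and 0 for 24 h, where 14.2% and 22% of all tested probe sets had such a p. They again called 0 members on the 16 arrays, where 1.98% and 12.1% of all tested probe sets were called. The estimates for 2 h ranged from -0.22 for bZIP28 to 1.38 for bZIP61, and their intervals were wide, so small differences were not detectable with these numbers of arrays. Comparing 24 h with 2 h in arp6-10 called 0 members on all 18 arrays and on the 16, with backgrounds of 1.83% and 14.9%. Genotypes at 2 h and at 24 h on the 16 arrays also gave 0 members, with backgrounds of 19.4% and 3%.

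**Figure D4:**
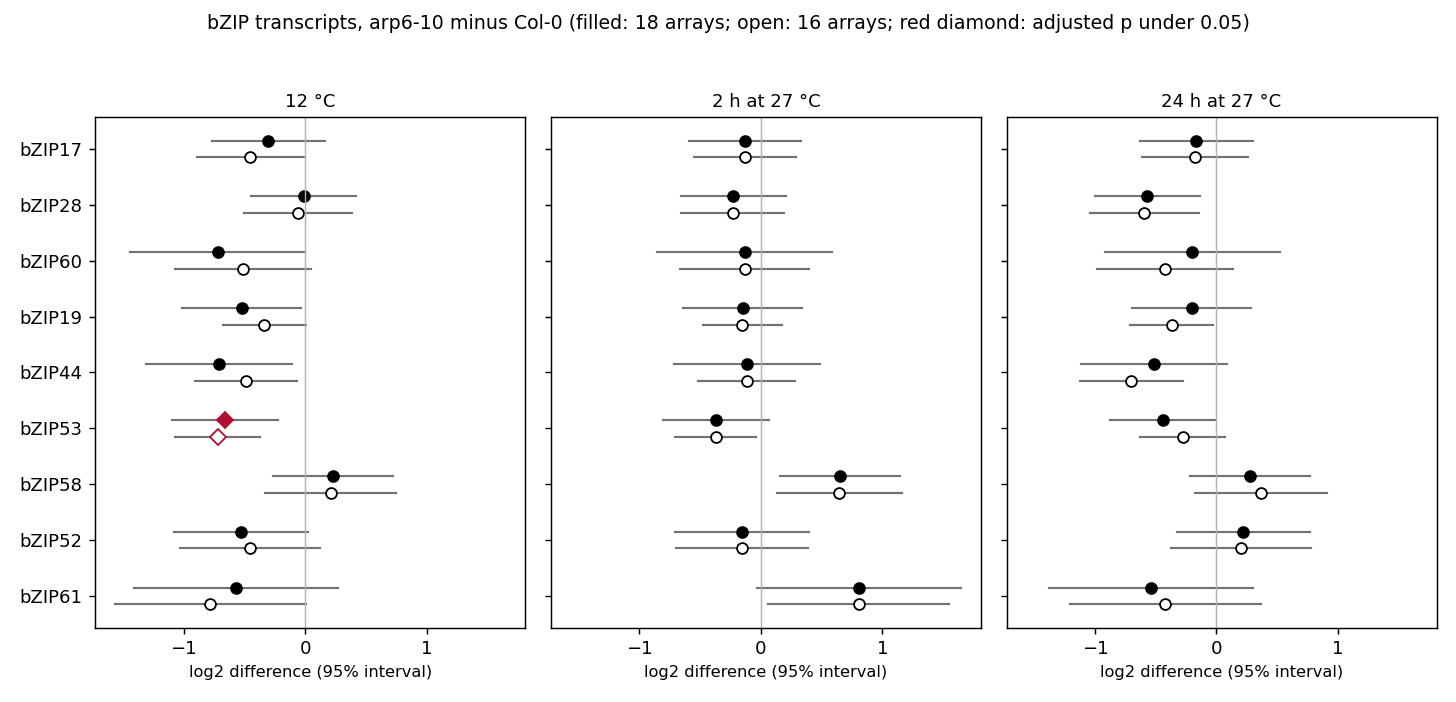
Difference of arp6-10 from Col-0 for each bZIP member at 12 °C, 2 h and 24 h, as limma estimates on the log2 scale with 95% intervals before adjustment. Filled symbols are from all 18 arrays, open symbols from the 16 arrays, and red diamonds have an adjusted p under 0.05; the diamonds are bZIP53 at 12 °C, at -0.66 and -0.72.

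Of the other bZIP genes, those that the annotation names in another way or by locus, 10 had a single-gene probe set and 8 of these were tested. PosF21 (AT2G31370), a group I factor like bZIP52, rose in Col-0 by 1.03 at 2 h (adjusted p = 0.0317 by limma) and by 1.16 at 24 h (adjusted p = 0.00978). It was higher in arp6-10 than in Col-0 at 12 °C by 1.49 (adjusted p = 0.000203), with arrays at 7.35, 6.87, 7.11 and 7.17 against 6.01 and 5.26. Its arp6-10 arrays stayed between 6.87 and 7.40 at all 3 times.

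Relatives of PosF21 in group I did not all move alike. bZIP69 (AT1G06070) rose in Col-0 at 24 h by 1.15 (adjusted p = 0.0248 by limma) and was higher in arp6-10 at 12 °C by 0.81 (adjusted p = 0.0385). bZIP18 (AT2G40620) was lower in arp6-10 at 12 °C, by -0.76 (adjusted p = 0.00084), with arrays at 6.46 to 6.71 against 7.26 and 7.30, and at 2 h, by -0.54 (adjusted p = 0.0273). HYH (AT3G17609), the homolog of the light regulator HY5, fell in arp6-10 at 2 h by 0.88 (adjusted p = 0.0349). Without the doubted arrays that fall was 1.12 (adjusted p = 3.4e-05), and the 2 h response of HYH differed between genotypes by -0.99 (adjusted p = 0.0445), where all 18 arrays gave no call.

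Lists for further bZIP groups had few tested genes. Of 14 abscisic acid response genes 2 were tested, and COR47, a dehydrin, was higher in arp6-10 at 12 °C by 0.95 (adjusted p = 0.012 by limma). Of 8 genes listed with the TGA factors 2 were tested, and the glutaredoxin gene ROXY1 fell in Col-0 by 1.17 at 24 h (adjusted p = 0.00815). From 2 h to 24 h 1 of the 2 was called lower in each genotype, with backgrounds of 4.67% in Col-0 and 1.83% in arp6-10. Between genotypes at 12 °C 1 of the 2 was called lower in arp6-10, with a background of 32.3%. Of 12 light signalling genes and targets 3 were tested, and UGT78D2, a flavonoid glycosyltransferase, fell in arp6-10 at 2 h by 1.67 (adjusted p = 0.0343), the only call of this list on all 18 arrays. In Col-0 at 2 h its difference was -1.74 (adjusted p = 0.0732), and the median of the 3 was -3.24 in Col-0 and -2.05 in arp6-10. Without the doubted arrays UGT78D2, DFR and UF3GT, genes of anthocyanin synthesis, all fell at 2 h and at 24 h in both genotypes, with backgrounds of 17% to 31.2%. In that fit the 24 h responses of all 3 were more negative in arp6-10, with a median difference of -1.52, where 12.1% of all tested probe sets were called. On all 18 arrays that median was 0.42, of the opposite sign, and 0 of the 3 were called. All 3 are also among the flavonoid markers by which the 2 doubted arrays stood apart. The choice of arrays thus favours a larger fall of these genes in arp6-10 at 24 h.

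The genes whose pattern over the 18 arrays was most like that of the members with the widest group means were found by Pearson correlation among 8744 tested single-gene probe sets, as a description. For bZIP19 they were AT4G15770, AT5G20160 and AT1G28600, at 0.95, 0.94 and 0.94. For bZIP53 they were AT3G02700, AT5G26600 and PRA7 (AT1G55190), at 0.91, 0.91 and 0.90. For bZIP61 they were AT3G27150, AT5G41760 and AT1G05860, at 0.88, 0.85 and 0.81. The points share their arrays and groups, so the correlations carry both the warm shift and the genotype.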

How the data were processed

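Whole-seedling RNA was hybridised to 18 arrays. The authors deposited 1 table of linear intensity values, and the submitters' processing notes name GCOS as the tool; its scaling is not given in the sources used here. The table held 22810 probe sets, 64 of them controls; the platform annotation paired 13513 with 1 gene, 503 with several and left 8730 unlisted, and 13436 of the first matched RefSeq. Values were transformed as log2(value + 16) and quantile normalised. Probe sets at or above the 30th percentile of mean level (15922) were fitted over 6 group means with limma 3.58.1 in R 4.3.3 (lmFit, eBayes with trend, 12 residual degrees of freedom), and p-values were adjusted by Benjamini-Hochberg within each comparison. The number of arrays limits the precision. Genes that share a probe set by sequence likeness cannot be separated.

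The fit was tested on simulated data. Every member is named; members called in any comparison, and bZIP28 and bZIP60, which were chosen after their values were seen, are given by array. Of the lists, tested genes that were called are named or counted, and the shoot, root and flavonoid markers are given as means. Members and lists were chosen with earlier results of these data known. Alternatives were values as deposited, a pseudocount of 64, no filter, the 16 arrays, a replicate block, the compared groups alone, and each array left out. ARP6 itself was not analysed here.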

Additional observations from a re-analysis of the deposited data

How the results depend on the processing

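With a pseudocount of 64 all 13 results (the 11 counts of members called, and the changes of bZIP19 and bZIP53) kept their direction and their side of the threshold. The count in Col-0 at 2 h, 1 on all arrays, was 0 with no filter, 2 on the 16 arrays and 2 with the compared groups alone; bZIP19 had an adjusted p of 0.0581 with no filter, at -0.91. For Col-0 at 24 h, 0 became 1 as deposited, 1 on the 16 arrays and 2 with the compared groups alone. For Col-0 at 24 h against 2 h, 0 became 1 as deposited, on the 16 arrays, with the replicate block and with the compared groups alone, bZIP61 each time. On the 16 arrays these Col-0 comparisons called 21.2% (2 h), 31.2% (24 h) and 13.9% (24 h against 2 h) of all tested probe sets. In arp6-10, 0 became 2 at 2 h and 4 at 24 h on the 16 arrays, with 17% and 28.9% of all tested probe sets called. With the replicate block it became 1 at 2 h. Shares over all tested probe sets were counted only for all 18 arrays and for the 16. The genotype count at 12 °C, 1, was 3 with the replicate block (bZIP53, bZIP52 at -0.72 with an adjusted p of 0.0222, and bZIP61 at -0.90 with 0.0394) and 0 with the compared groups alone, where bZIP53 had -0.66 and an adjusted p of 0.0545. The causes were not tested. No result reversed. Deviations of same-numbered arrays from their group means correlated at -0.40 to 0.56 in arp6-10 and -0.10 to 0.07 in Col-0. Between genotypes 5 of 18 same-numbered pairs were over 0.1, against 6 of 54 others. For 7 of 18 samples the best correlation was with their own number. The numbers were not taken as pairs. These values include the 2 doubted arrays, so they cannot exclude pairing. With each array left out, counts ranged from 0 to 1 for Col-0 at 2 h, at 24 h and at 24 h against 2 h, for arp6-10 at 2 h and 24 h and for the genotypes at 2 h, from 0 to 2 for the genotypes at 12 °C, and stayed at 0 elsewhere. In those fits bZIP19 ranged from -1.06 to -0.76 and bZIP53 from -0.73 to -0.58. Groups of 2 Col-0 arrays and dim probe sets near the floor limit what could be detected.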
